A study of Homo sapiens with 17 samples.

Results

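The regions described here are 300 bins of 100 kb with the densest ChIRP signal in HCC1954, an established line of human breast cancer cells with amplified HER2. ChIRP (chromatin isolation by RNA purification) uses antisense probes to pull down an RNA together with the DNA close to it. Which RNA was captured here is not stated by the labels, and the study's title names LINC01235, a long non-coding RNA. The autosomes were divided into 28748 bins, the midpoints of the deposited ChIRP peaks were counted per bin, and the 300 bins with the most midpoints were kept. The members were therefore chosen by their ChIRP counts, which are described below and not tested.

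All cells were HCC1954 transfected with antisense oligonucleotides and fixed 72 h later. The labels name the 2 arms NC1235 and Si1235 and do not spell these names out. ChIP-seq lists came from 2 libraries per arm for the histone variant H2AZ, for H3K27ac and for H3K36me3, and from 1 library per arm for H3K9ac. There was 1 ChIRP library, titled NC1235, so the ChIRP signal cannot be compared between arms. Whether replicates came from separate cultures is not stated, so the p-values reflect library-to-library spread that may be purely technical, and the cell line is a single source.

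Breast cancers often carry amplicons, chromosome segments present in many copies, and HER2-positive tumours are defined by extra copies of ERBB2, which encodes the receptor tyrosine kinase HER2. More copies of a segment give more sequenced fragments from it in every library, input included. H3K27ac and H3K9ac mark active promoters and enhancers, H2AZ sits in nucleosomes beside promoters and enhancers, and H3K36me3 is laid down over the bodies of transcribed genes. Peak lists were the data, so levels are given as cover, the percent of a bin that lies within peaks. The ChIP lists held 40955 to 79162 peaks on the autosomes and the ChIRP list 122190. An H3K27ac peak lay over 8 of 8 luminal epithelial genes and over ERBB2 and GRB7 in all 4 H3K27ac libraries. The same held for 5 of 6 basal epithelial genes (all but KRT14), 2 of 6 fibroblast, 3 of 6 immune and 3 of 4 endothelial genes.

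The promoter sequences below show gene starts in hotspots: CWC15 and TCL1A, which had strong ChIRP peaks, SPO11, which had a weaker one in a hotspot of high rank, and ERBB2, which had none. All are RefSeq windows of GRCh38.p14, from 250 bases before to 50 bases after the gene start, 5′ to 3′ on the gene's strand, and they were picked after their values were seen. Capitals mark the GC box (GGGCGG) and the CCAAT box (CCAAT), each on either strand.
CWC15: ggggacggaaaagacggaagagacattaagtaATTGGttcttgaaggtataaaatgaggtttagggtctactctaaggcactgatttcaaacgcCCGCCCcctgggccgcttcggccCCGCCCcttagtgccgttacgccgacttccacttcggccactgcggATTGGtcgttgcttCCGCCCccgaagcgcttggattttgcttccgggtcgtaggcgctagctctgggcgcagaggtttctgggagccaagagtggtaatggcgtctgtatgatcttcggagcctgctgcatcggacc
TCL1A: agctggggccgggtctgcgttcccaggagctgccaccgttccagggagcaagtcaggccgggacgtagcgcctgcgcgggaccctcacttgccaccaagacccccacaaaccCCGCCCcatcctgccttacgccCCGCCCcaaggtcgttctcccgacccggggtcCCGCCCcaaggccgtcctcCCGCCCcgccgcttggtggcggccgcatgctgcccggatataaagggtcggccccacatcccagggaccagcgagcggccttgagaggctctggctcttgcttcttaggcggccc
SPO11: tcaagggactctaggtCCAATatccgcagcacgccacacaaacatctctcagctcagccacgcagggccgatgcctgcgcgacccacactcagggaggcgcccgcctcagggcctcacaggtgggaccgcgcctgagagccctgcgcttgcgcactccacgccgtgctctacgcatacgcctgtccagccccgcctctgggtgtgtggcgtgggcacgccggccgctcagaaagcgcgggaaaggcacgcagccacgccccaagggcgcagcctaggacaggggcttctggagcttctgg
ERBB2: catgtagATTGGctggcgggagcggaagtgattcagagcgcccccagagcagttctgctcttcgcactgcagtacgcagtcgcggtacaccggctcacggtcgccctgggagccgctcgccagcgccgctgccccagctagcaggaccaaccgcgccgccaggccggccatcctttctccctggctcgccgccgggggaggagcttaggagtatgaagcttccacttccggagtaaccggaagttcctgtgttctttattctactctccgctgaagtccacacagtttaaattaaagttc

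The CWC15 window (chr11:94973507-94973806, minus strand) belongs to a spliceosome component and overlaps the start of KDM4D, a histone demethylase gene read the other way. Its ChIRP peak had a fold enrichment of 27.1, the highest over any coding gene start in a hotspot, and the window holds 3 GC boxes and 2 CCAAT boxes. In 10 of 14 ChIP libraries a peak also lay over the CWC15 window. The TCL1A window (chr14:95714076-95714375, minus strand) had a ChIRP fold enrichment of 24.3 and 4 GC boxes, with no ChIP peak in any of the 14 libraries. SPO11, which encodes the enzyme that makes meiotic DNA breaks, lies in the hotspot of rank 6. Its window (chr20:57329553-57329852, plus strand) had a ChIRP fold enrichment of 7.82 and no GC box. The ERBB2 window (chr17:39687844-39688143, plus strand) has 1 CCAAT box and no GC box. It overlaps the neighbouring gene PGAP3 (chr17:39671122-39688057).

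Few coding gene starts in hotspots had a ChIRP peak. Some windows shared a peak, as those of CWC15 and KDM4D did. Of 350 coding gene start windows in hotspots, 25 overlapped a ChIRP peak (7.14%), against 24 of 311 (7.72%) in the next 300 bins by rank and 3.97% of 20805 in all other autosomal bins. The count of peaks per bin was the rule, so the higher share against all other bins is a description. A GC box was found in 64% of the hotspot windows and in 13 of the 25 with a ChIRP peak (52%), against 56.6% of all 21155 windows. The CCAAT box was found in 36% of the 25 windows and 34.4% of all windows. A match of these letters is not a binding site.

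Hotspots held 12 to 21 midpoints each, with a median of 13, while the other bins with a midpoint held 4.59 ± 2.38 (SD over 25725 bins). The 300 bins are 1.04% of the autosomal bins and held 4052 of the midpoints, or 3.32%. The count at the limit was 12, which 182 bins shared. Of these, 98 were kept by chromosome order, and the last 3 inside were chr9:137100001-137200000, with GRIN1, and chr10:76000001-76100000 and chr10:116000001-116100000, in LRMDA and GFRA1. The first 3 outside, chr10:124600001-124700000, chr10:130300001-130400000 and chr11:45300001-45400000, also held 12. Only 202 bins lay above the tied count, and 384 were at or above it, so no hotspot on chromosomes 11 to 22 had a count of 12.

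Peaks in hotspots were about as enriched as elsewhere. The median deposited fold enrichment of a ChIRP peak was 11.1 in hotspots, 11.1 in the next 300 bins and 11.05 in all other bins, and folds under 5 made up 7.82%, 6.12% and 6.17%. The median summit pileup, the number of overlapping fragments at the summit, was 30 in hotspots, 25 in the next 300 bins and 21 elsewhere. Fold enrichment divides this pileup by the local background after the same constant is added to both. Hotspots had higher pileups over a higher background.

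The single densest bin, chr9:97300001-97400000, held 21 midpoints over CCDC180, a coiled-coil gene. It was followed by chr5:500001-600000, with 20 over SLC9A3, a sodium-proton exchanger gene. The third, chr5:800001-900000, also held 20, over ZDHHC11, BRD9, a chromatin remodeller subunit, and TRIP13, a spindle checkpoint ATPase. The next 4 bins held 19 midpoints each. They were chr11:69300001-69400000 with the lncRNA LOC105369370 and no coding gene, chr17:39600001-39700000 with ERBB2, STARD3 and PGAP3, chr20:57300001-57400000 with RAE1, SPO11 and RBM38, and chr20:61100001-61200000 with no coding gene. All but the first of these 7 bins lay on chromosomes 5, 11, 17 and 20.

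The bins with 18 midpoints were chr5:1200001-1300000, which holds TERT, the catalytic subunit of telomerase, and chr20:61200001-61300000 and chr20:61300001-61400000, both in CDH4, a cadherin gene. The next bins, with 17 each, included chr5:176800001-176900000 (UNC5A, a netrin receptor, and HK3, a hexokinase) and chr8:98400001-98500000 (STK3, a Hippo pathway kinase, and KCNS2). The others of the first 15 were chr11:69000001-69100000 (TPCN2, an endolysosomal channel, and MRGPRF), chr15:41500001-41600000 (RPAP1, TYRO3, LTK and ITPKA) and chr17:39700001-39800000 (IKZF3, ERBB2, GRB7 and MIEN1).

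Hotspots were unevenly spread over the chromosomes. Chromosomes 1 and 8 held 35 each, chromosome 9 held 34, chromosome 5 held 33 and chromosome 20 held 27, while chromosomes 13 and 19 held 0. As a share of a chromosome's bins, chromosome 20 stood first with 4.19%, followed by chromosome 9 with 2.46% and chromosome 8 with 2.41%. The lowest share above 0 was 0.150%, on chromosome 12. The tie rule favours low chromosome numbers among bins with 12 midpoints, so the counts of chromosomes 1 to 10 include bins that chromosomes 11 to 22 could not contribute.

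**Figure D1:**
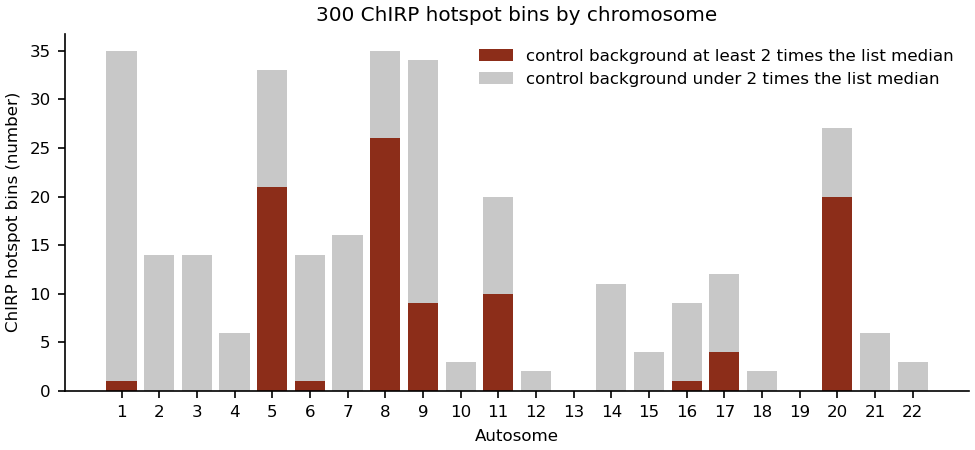
Number of ChIRP hotspot bins on each autosome, stacked by the control background of the bin in the ChIRP list. Of 300 hotspots, 93 had a background of at least 2 times the list median, and 76 of 93 lay on chromosomes 5, 8, 9 and 20.

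Adjacent hotspots were a minority. A hotspot touched another in 68 of 300 cases (22.7%), against 37 adjacent bins among the next 300 by rank, and 232 hotspots stood alone. The longest run had 6 bins, chr20:60900001-61500000, with 102 midpoints in all. CDH4 lies in its last 3 bins, and the first 3 hold no coding gene. The second had 5 bins, chr11:69200001-69700000, with 76 midpoints. It spans MYEOV, CCND1, which encodes cyclin D1, the growth factor gene FGF19, and LTO1.

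Bins with genes of the HER2 amplicon formed the third longest run, 4 bins at chr17:39500001-39900000 with 65 midpoints. The next bin, with GSDMB and ORMDL3, held 12 midpoints (rank 350) and was left out by the tie rule. Of the 16 listed genes of the HER2 amplicon, 11 overlapped the 4 hotspots of the run: CDK12, NEUROD2, PPP1R1B, STARD3, TCAP, PNMT, PGAP3, ERBB2, MIEN1, GRB7 and IKZF3. CDK12, a kinase that phosphorylates RNA polymerase II, straddled the edge, and its bins held 1 and 15 midpoints. The fourth run, chr5:1200001-1600000, had 4 bins and 61 midpoints over TERT, CLPTM1L, the dopamine transporter gene SLC6A3 and LPCAT1. The fifth, chr5:800001-1100000, had 3 bins and 48 midpoints over BRD9, TRIP13, NKD2 and SLC12A7.

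Joined across gaps of up to 1 Mb, the hotspots fell into 176 groups, of which 7 had 5 or more members. The largest group held 19 hotspots in 4.2 Mb of chromosome 20 (chr20:57300001-61500000). The next held 17 hotspots in 3.6 Mb at the start of chromosome 5 (chr5:500001-4100000), and the third held 8 in 1.2 Mb around CCND1 (chr11:69000001-70200000). Together the 7 groups held 66 hotspots.

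Windows around known amplicon genes of breast cancer held a minority of the hotspots. Windows of 1 Mb on either side of 30 listed amplicon genes held 36 hotspots (12%), while they cover 2.06% of the autosomal bins. In 12 of the 30 windows there was a hotspot. The TERT window held 11 hotspots among 21 bins, and the CCND1 window held 8 among 21. The ERBB2 and CDK12 windows overlap and held the 4 hotspots of the HER2 run, and the RAD21 window held 4, of which 3 lie in SLC30A8, a zinc transporter gene. MYC and its neighbour lncRNA PVT1 shared 3, MDM4 had 2, and AURKA, NCOA3, PAK1 and YWHAZ had 1 each. The other 18 windows held no hotspot, among them those of FGFR1, ZNF703, EGFR, PIK3CA, MCL1, CCNE1 and ZNF217.

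The files hold no copy number, but the peak lists carry a measure that depends on the control reads at each place. Fold enrichment and −log10 p of each peak were solved for the pileup and for the local background the peak caller had set against it. Whole pileups came out for every autosomal peak in 13 of the 15 lists. They came out for 0.859% and 1.06% of peaks in the 2 NC1235 H3K27ac lists, which were left out of the background values. Where the background lay above its floor and under 4 times the floor, at least 99.6% of the values in each list were whole multiples of the steps that single reads give in windows of fragment length, 1 kb and 10 kb. In the ChIRP list, 36.6% of peaks were at the floor. Background is given below as a multiple of the list's median over autosomal peaks, and for a bin as the median over its peaks.

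Hotspots stood on a higher control background than other bins in the ChIRP list and in the ChIP lists. The median bin value in the ChIRP list was 1.41 for hotspots and 0.889 for other bins, and 1.35 against 0.956 averaged over the 12 ChIP lists that could be solved. A background of at least 2 was found in 93 hotspots (31%) and in 3.74% of the other bins with a midpoint. Of those 93, 31 lay in an amplicon window and 62 did not. The windows do not trace the extent of amplicons. The group of 19 hotspots at chr20:57300001-61500000 had a median ChIRP background of 3.61, and the AURKA window held 1 of them. At the other end, 49 hotspots (16.3%) had a background under 1, against 60.5% of the other bins.

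The HER2 run had the highest background of the 5 longest runs. Its median was 42.0 times the list median in the ChIRP list, 39.8 to 49.7 in the 5 solved NC1235 ChIP lists and 33.4 to 41.1 in the 7 Si1235 lists. The run at TERT had 9.03 in the ChIRP list and 6.20 to 9.10 in the ChIP lists. Its neighbour with BRD9 and TRIP13 had 12.04 in the ChIRP list and 9.55 to 17.7 in the ChIP lists. The CCND1 run had 5.36 and 4.36 to 5.83, and the CDH4 run had 4.57 and, in the lists with a peak there, 3.35 to 5.12. The ranges of the CCND1 and CDH4 runs overlap, and the HER2 run overlaps none of the other 4.

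Other hotspots with many midpoints stood near the median background in the ChIRP list. The densest bin, over CCDC180, had 1.22 in the ChIRP list, the TYRO3 and LTK bin had 0.979, and the TPCN2 bin had 1.30. In the solved ChIP lists the CCDC180 bin averaged 2.11 in NC1235 and 0.872 in Si1235. The TYRO3 and LTK bin averaged 0.943 and 0.821, and the TPCN2 bin 1.42 and 1.11. Chromosomes 2, 3, 4 and 7 had 50 hotspots between them, 14, 14, 6 and 16, and 0 of these had a background of at least 2. On chromosome 8, 26 of 35 hotspots did, on chromosome 5, 21 of 33, on chromosome 20, 20 of 27, on chromosome 11, 10 of 20, and on chromosome 9, 9 of 34.

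Over all bins with a value in the ChIP lists alone, midpoints were higher where the background was higher. In 11221 bins with a background under 1, the mean was 4.25 ± 2.40 midpoints (SD over bins), and 0.410% of them were hotspots. In 442 bins with a background of 2 to 3 the mean was 6.85 ± 2.99 and 6.11% were hotspots. In 33 bins of 5 to 10 the mean was 10.1 ± 4.06 and 30.3% were hotspots, and of 11 bins of 10 or more, 9 were. Across the 20007 bins Spearman's rho of background and midpoints was 0.276, a description, since all lists share a cell line and base composition. Copy number itself was not measured, and its part in the counts was not tested.

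**Figure D2:**
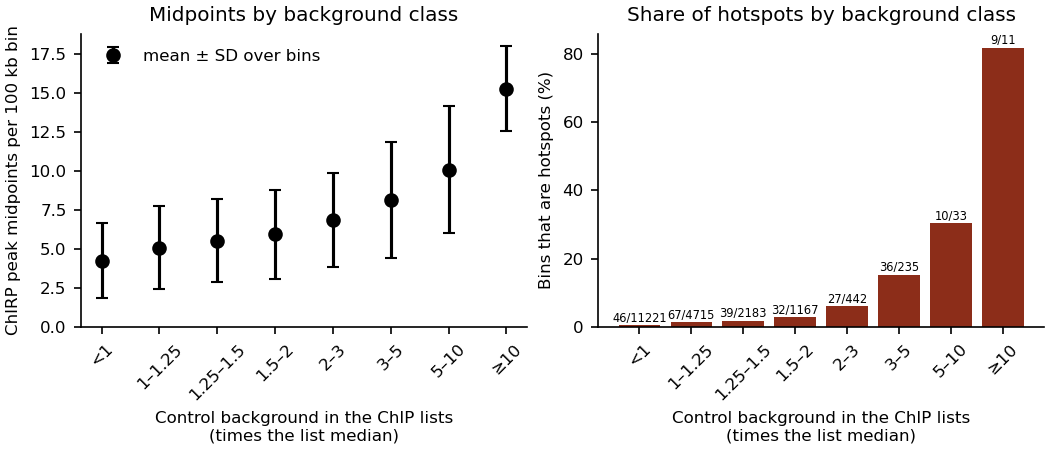
Left, ChIRP midpoints per 100 kb bin (mean ± SD over bins) by the control background of the bin in the ChIP lists, in multiples of the list median. Right, the percent of bins in each class that are hotspots, with the number of hotspots over the number of bins, which rises from 0.410% under 1 to 9 of 11 bins at 10 or more.

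Regions of chromosome 9 with a raised background included that of LINC01235 and the KDM4C window. The bin of LINC01235 (gene at chr9:13406380-13431329) held 7 midpoints at a ChIRP background of 2.61, with rank 4666, and 3 ChIRP peaks overlapped the gene. Of the 5 bins on either side, 1 was a hotspot, chr9:13800001-13900000 with 12 midpoints. The KDM4C window, on the same chromosome, had a median background of 2.61 (3.31 in the ChIP lists). It had a mean of 6.48 midpoints and no hotspot among its 25 bins. By the ChIP lists, 6.11% of all bins with a background of 2 to 3 were hotspots, and 15.3% of those with 3 to 5.

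Most hotspots were genic. A coding gene overlapped 236 hotspots (78.7%), 75.7% of the next 300 bins and 66.0% of the other bins with a midpoint, and 475 coding genes overlapped a hotspot in all. An lncRNA gene overlapped 65.3% of hotspots and 53.8% of the other bins. ANK1, CDH4 and SLC30A8 were the 3 coding genes that spanned 3 hotspots. Of all coding genes on the autosomes, 2.48% overlapped a hotspot. Listed genes hit were 0 of 24 breast cancer drivers, 0 of 19 replication licensing genes, and 1 of 17 H2A.Z and chromatin genes, NSD1, an H3K36 methyltransferase. Among the 30 amplicon genes, 5 were hit: PVT1, CCND1, ERBB2, TERT and CDK12.

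Peaks of all 4 marks covered more of the hotspots than of other bins, in each of the 14 ChIP libraries. Mean H3K9ac cover was 5.39% in the NC1235 library and 5.83% in the Si1235 library, or 1.99 and 2.17 times that of the other bins with a midpoint. Mean H3K27ac cover was 4.55% and 4.53% (NC1235) against 4.82% and 4.47% (Si1235), which is 1.78 to 1.89 times the other bins. For H2AZ the NC1235 libraries had 2.74% and 2.28% and the Si1235 libraries 2.94% and 2.37%, or 1.67 to 1.84 times. For H3K36me3 these were 6.80%, 5.71%, 7.35% and 6.38%, or 1.29 to 1.43 times.

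Set against the next 300 bins the ratios were close to 1, from 0.992 to 1.20 over the 14 libraries. H3K36me3 was at 0.992 to 1.02, H3K27ac at 1.05 to 1.09, H2AZ at 1.04 to 1.17 and H3K9ac at 1.12 and 1.20. In the 207 hotspots with a ChIRP background under 2, the ratio to the other bins with a midpoint lay at 1.40 to 1.61 (H2AZ), 1.71 to 1.83 (H3K27ac), 1.23 to 1.36 (H3K36me3) and 1.80 to 1.94 (H3K9ac). These 207 hotspots were not matched to the other bins in background or gene content. A coding gene overlapped 81.6% of them and 66.0% of the other bins with a midpoint. The part of background in the mark cover was not tested.

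Hotspots differed widely among themselves. H3K9ac cover ran from 0 to 37.1% in NC1235 and to 48.6% in Si1235, both maxima in one bin with ERBB2 (chr17:39600001-39700000). H3K36me3 was absent from 171 to 181 of the 300 hotspots and reached 56.3% to 63.7%. No mark had a peak in any of the 14 libraries in 34 hotspots (11.3%), against 24.7% of the other bins with a midpoint, and 93 hotspots (31%) had a peak in all 14. The TERT bin had H2AZ cover of 0.305% and 0.273% in the Si1235 libraries, and its cover was 0 in the other 12 libraries. Few ChIRP peaks coincided with marks: 79.6% of the 4052 in hotspots and 84.8% of those elsewhere overlapped no peak in any ChIP library.

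**Figure D3:**
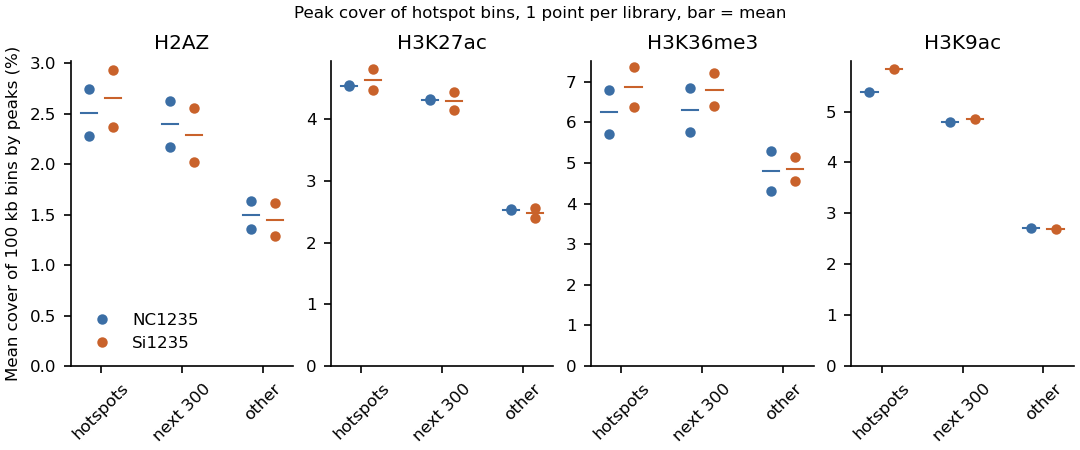
Mean percent of 100 kb bins covered by peaks for the hotspots, the next 300 bins by ChIRP rank and the other bins with a midpoint. Each point is 1 library, and each bar is the mean of an arm. In each library the hotspots and the next 300 lie close together and above the other bins.

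Between the arms, the mean cover of hotspots differed by less than the spread between libraries for H2AZ and H3K27ac. H2AZ was 2.51 ± 0.33% in NC1235 and 2.65 ± 0.40% in Si1235 (SD, n = 2 each), and H3K27ac was 4.54 ± 0.01% and 4.64 ± 0.25% (n = 2 each). H3K36me3 was 6.25 ± 0.77% and 6.86 ± 0.69% (n = 2 each), also within the spread. No test was made on these means, since an exact permutation test of 2 against 2 libraries cannot give a two-sided p below 0.333. H3K9ac, with 1 library per arm and no replicate check, was 5.39% and 5.83%. In the other bins with a midpoint the Si1235 minus NC1235 differences were −0.05 percentage points for H2AZ, −0.06 for H3K27ac, 0.06 for H3K36me3 and −0.02 for H3K9ac. In hotspots these were 0.14, 0.10, 0.61 and 0.44, and in the next 300 bins −0.11, −0.03, 0.50 and 0.07. The H3K36me3 difference was thus similar in hotspots and the next 300 bins. With 1 library left out at a time, the hotspot difference ran from −0.142 to 0.427 for H2AZ, from −0.0759 to 0.276 for H3K27ac and from 0.0667 to 1.16 for H3K36me3. The H2AZ sign turned without NC1235 replicate 2 (−0.0898) or Si1235 replicate 1 (−0.142), and the H3K27ac sign turned without Si1235 replicate 1. The H3K36me3 difference was lowest without NC1235 replicate 2 and was 0.127 without Si1235 replicate 1.

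Single bins were tested with limma on cover over all autosomal bins with a mean cover of at least 0.5%, with Benjamini-Hochberg adjustment over all tested bins. H3K27ac was the mark with differences. Of 300 hotspots, 181 were tested and 30 were called at an adjusted p under 0.05, 16 higher in Si1235 (8.84%) and 14 lower (7.73%). Over all 12642 tested bins, 6.32% were called higher and 11.6% lower, so the share of hotspots called, 16.6%, was near the 17.9% of all bins. When each library was set to the same total cover, 29 hotspots were called higher and 16 lower. The calls of all bins turned from 799 higher and 1461 lower to 1469 and 1617. In that setting 24.9% of the tested hotspots and 24.4% of all tested bins were called. Both Si1235 libraries exceeded both NC1235 libraries in 65 tested hotspots (35.9%, against 28.3% of all tested bins) and were below them in 46 (25.4%, against 33.0%). The calls depend on single libraries: leaving out any 1 library lowered the number called among hotspots and among all tested bins alike. With all libraries, 57 hotspots had an unadjusted p under 0.05 in limma, which is 31.5%, against 33.2% of all tested bins. Both NC1235 H3K27ac lists are also the ones with scaled pileups, a difference in processing that coincides with the arm, and the processing and the arm cannot be told apart.

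The H3K27ac difference of largest size in a called hotspot was at VEGFA, the gene of vascular endothelial growth factor A (chr6:43700001-43800000, rank 253). The NC1235 libraries had cover of 11.3% and 10.5%, the Si1235 libraries 18.5% and 16.8%, and the arms did not overlap. The difference was 6.75 ± 0.72 percentage points (SE), with an adjusted p of 0.00672 in limma. Within the gene body (chr6:43770211-43786487) H3K27ac peaks covered 5.13 and 4.59 kb in NC1235 and 5.13 and 4.70 kb in Si1235, so the added cover lay outside the gene. Without NC1235 replicate 2 the adjusted p was 0.0597 in limma. H3K9ac cover in the bin was 19.6% in NC1235 and 17.2% in Si1235.

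Among the 10 called hotspots with the largest H3K27ac differences, 4 were higher in Si1235 and 6 lower. The others that rose were chr1:203100001-203200000, with the adenosine receptor gene ADORA1, MYBPH and CHI3L1 (12.7% to 15.8%), chr6:43900001-44000000, beside the VEGFA region with no coding gene (10.4% to 12.9%), and chr11:69800001-69900000, with the growth factor gene FGF3 (6.74% to 9.12%). Those that fell lay at NECTIN1, a cell adhesion gene (chr11:119600001-119700000, 13.1% to 9.83%), TRAM2 (chr6:52500001-52600000, 8.91% to 5.80%) and NID1, a basement membrane gene (chr1:235900001-236000000, 18.9% to 15.8%). GFOD1 (chr6:13400001-13500000, 22.4% to 19.6%) was at the limit, with an adjusted p of 0.0490 in limma that stayed under 0.05 in 3 of 10 other settings. MOCS1 with DAAM2 (chr6:39900001-40000000) fell from 9.09% to 6.58%. In chr8:102700001-102800000, which has no coding gene, cover fell from 31.5% to 27.1%. Adjusted p-values of the 10 in limma ran from 0.00672 to 0.0490. Of these 10 bins, 5 lay on chromosome 6, which held 14 of all hotspots (4.67%). Those 5 include the VEGFA bin and the bin beside its region, and the 10 were picked by size of difference. Whether calls gathered on chromosome 6 was not tested.

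No hotspot was called for H3K36me3 in limma: 120 of 300 were tested, 0 were called, and 9 had an unadjusted p under 0.05 (7.50%, against 7.57% of all 7741 tested bins, of which 0% were called). The Si1235 libraries both lay above the NC1235 libraries in 35 of the 120 and both below in 7, against 16.7% above and 15.8% below over all tested bins. The widest difference was in the fourth densest bin, chr11:69300001-69400000, between MYEOV and CCND1. The NC1235 libraries had cover of 4.2% and 1.96%, the Si1235 libraries 28.6% and 24.1%. The difference was 23.2 ± 2.36 percentage points (SE), with an adjusted p of 0.138 in limma. That p ran from 1.13e-07 to 0.466 over 10 other settings, and it was under 0.05 when any 1 of the 4 libraries was left out, where a lone library is assumed to vary like the others. In NC1235 there were 5 and 4 peaks, the widest of 1.52 kb, and in Si1235 there were 21 and 21, the widest of 5.76 kb, spread over chr11:69299133-69374534. The lncRNA LOC105369370 (chr11:69337140-69372511) took 8.17 and 8.83 kb of the Si1235 cover, and the rest lay outside it. H3K27ac cover there was 2.81% and 2.90% against 4.92% and 4.24%, an adjusted p of 0.0184 in limma.

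The other H3K36me3 bins named by size of difference were not called. ST3GAL1, a sialyltransferase gene (chr8:133500001-133600000), had 33.5% and 25.6% in the NC1235 libraries against 48.8% and 39.3%. The bin with ZC3H7B, TEF and RANGAP1 (chr22:41300001-41400000) had 39.0% and 29.8% against 47.2% and 40.8%. At TBCD and ZNF750 (chr17:82800001-82900000) cover was 12.02% and 4.25% against 20.4% and 12.3%. ZMIZ1 (chr10:79100001-79200000) went the other way, with 20.7% and 8.63% in NC1235 and 7.55% and 6.12% in Si1235. Their adjusted p-values in limma were 0.554 to 0.697. With equal total cover, the adjusted p in limma was 0.0112 for the ST3GAL1 bin and 0.0456 for the ZC3H7B bin, and without NC1235 replicate 2 it was 0.00398 for ZMIZ1.

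For H2AZ 215 hotspots were tested in limma and 0 were called, as in all 14010 tested bins (0%), and 14 had an unadjusted p under 0.05 (6.51%, against 6.19% of all). In 44 tested hotspots the Si1235 values all exceeded the NC1235 values, and in 24 they were all below, where 12.2% of all tested bins lay above and 18.8% below. The largest of these differences was at AMOTL1, an angiomotin family gene (chr11:94700001-94800000), with 6.87% and 5.86% in the NC1235 libraries against 11.1% and 8.90%. The next was the bin with ERBB2, STARD3 and PGAP3, with 14.9% and 13.97% against 18.2% and 16.5%. The control background of that bin averaged 45.5 over the solved NC1235 ChIP lists and 34.5 over the Si1235 lists. The named regions with no coding gene were chr11:69400001-69500000, with 8.27% and 7.02% against 10.6% and 8.61%, and chr1:218700001-218800000, with 2.74% and 1.83% against 4.87% and 3.44%. Adjusted p-values of these 4 bins were 0.736 to 0.965 in limma. With equal total cover the adjusted p in limma was 0.0486 at AMOTL1.

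**Figure D4:**
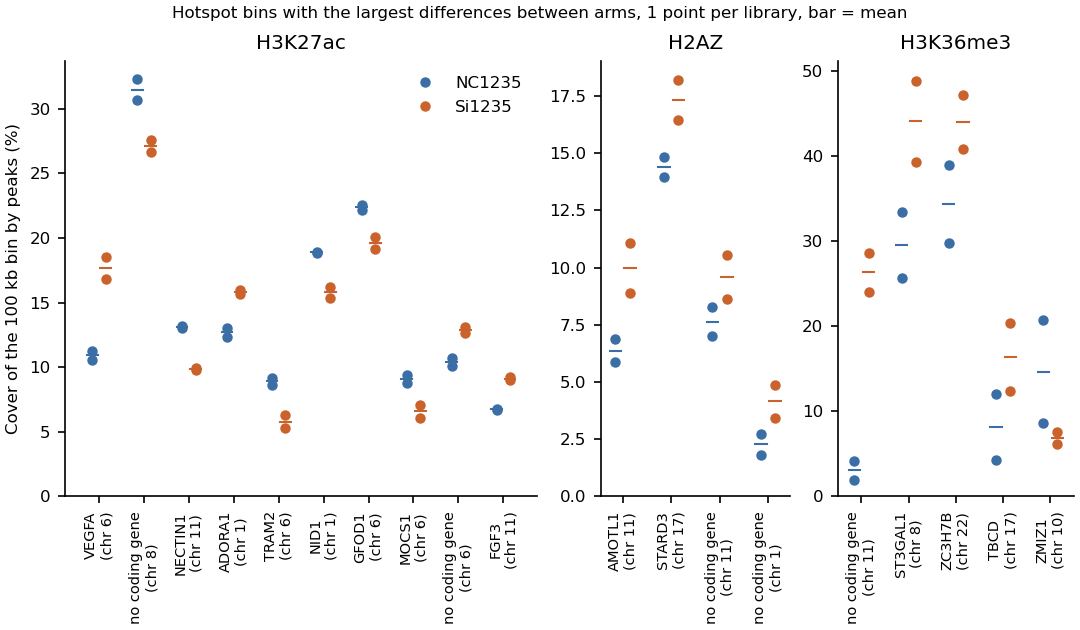
Percent of the 100 kb bin covered by peaks in each library for the hotspots with the largest differences between arms, named by the coding gene with most overlap. Points are libraries and bars are arm means. The 10 H3K27ac bins were called by limma, and the 4 H2AZ and 5 H3K36me3 bins were chosen because their arms do not overlap and were not called.

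The HER2 run had peaks of every mark in each library, but not in each bin. H3K36me3 cover was 0 in all 4 libraries in its first bin, with CDK12, and in its last, with IKZF3. Mean H3K9ac cover over the 4 bins was 19.4% in NC1235 and 25.7% in Si1235, without replicates. H3K27ac was 9.50% and 9.60% against 10.1% and 9.67%, and H2AZ was 9.94% and 9.73% against 11.1% and 10.2%. H3K36me3 was 12.1% and 11.2% against 13.8% and 13.0%. In each mark the Si1235 values lay above the NC1235 values, by less than 2 percentage points except for H3K9ac. Lists of an arm may share a control, so their backgrounds are not independent replicates. In each mark solved in both arms, the control background of the run was lower in the Si1235 lists. It was 41.5 and 39.8 against 35.3 and 33.5 for H2AZ, and 49.7 and 45.5 against 35.1 and 36.9 for H3K36me3. For H3K9ac it was 46.8 against 33.4, and for H3K27ac it was 40.4 and 41.1 in Si1235, with no NC1235 list solved. Its part in the differences in cover was not tested. The CDH4 run, by contrast, had H3K36me3 cover of 0 in all 4 libraries, H3K27ac cover of 0.673% to 0.771% and H2AZ cover of 1.21% to 1.48%.

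In the CCND1 run, H3K36me3 cover was 5.05% and 4.29% in the NC1235 libraries against 10.6% and 9.39% in the Si1235 libraries, and H3K27ac was 8.68% and 8.69% against 10.8% and 9.78%. Most of the H3K36me3 difference came from chr11:69300001-69400000, with 4.2% and 1.96% against 28.6% and 24.1%. The bin with CCND1 had H3K36me3 cover of 21.0% and 19.5% against 21.8% and 21.0%. The run at TERT, CLPTM1L, SLC6A3 and LPCAT1 had H3K36me3 cover of 16.8% and 15.1% against 19.1% and 17.3%, and H3K27ac of 3.06% and 3.07% against 3.55% and 3.41%. The run at BRD9 and TRIP13 had H3K36me3 cover of 17.0% and 16.7% against 17.8% and 17.2%. Lists of an arm may share a control here too. The control background in the H3K36me3 lists was 5.28 and 5.00 (NC1235) against 5.18 and 5.36 (Si1235) in the CCND1 run. At TERT it was 8.64 and 8.19 against 6.20 and 7.45, and at BRD9 13.9 and 14.5 against 10.5 and 10.9. Its part in the differences in cover was not tested. These runs were not tested as units, since their bins share libraries and were chosen by ChIRP counts.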

How the data were processed

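Peak lists of 15 libraries were used, 14 of ChIP-seq and 1 of ChIRP. Per the submitters' processing notes, reads were aligned to hg38 with Bowtie2 2.2.9, and MACS2, HTSeq 2.0.3 and DESeq2 1.22.2 are named without their roles. The deposited lists give for each peak a fold enrichment, which is the ratio of summit pileup to local background with 1 added to both. They also give the −log10 p and −log10 q of that pileup, as deposited by the authors. The control set against each library is not stated, the 2 input libraries were not analysed here, and read depth is unknown. Peak names in the H3K9ac lists carry another residue's name, and the labels were followed.

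Peaks were placed by midpoint in 100 kb bins of the autosomes, and cover was the percent of a bin within merged peaks. Pileup and background were solved from fold enrichment and −log10 p under a Poisson model, and background was divided by its median in the library. Steps were matched within 2e-04. Cover was compared between arms with limma 3.58.1 (R 4.3.3), with no covariate, in bins with a mean cover of at least 0.5%, with Benjamini-Hochberg adjustment. Percentages were computed in Python 3.11.15, and the code was tested on simulated data. Named bins are the first 15 by rank, the 5 longest runs, those in amplicon windows (summarised), the 3 on either side of the limit, up to 10 called hotspots per mark by size of difference and, for a mark with fewer than 5 calls, the 5 largest differences whose arms do not overlap. Of these, 1 H2AZ bin is not reported here. Genes, promoter sequences and symbols come from RefSeq. The members and gene lists were chosen with earlier results of these data known.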

Additional observations from a re-analysis of the deposited data

How the results depend on the processing

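Of the summary values, 103 alternatives stayed within the limits set for them and 32 moved. Among the former, the untested arm difference in hotspot cover changed sign for H2AZ on leaving out a library (−0.0898 and −0.142) and for H3K27ac (−0.0759 without Si1235 replicate 1, −0.0668 within replicate number 2). With each library set to the same total cover, limma called 61 bins (0.437% of those tested) and 2 hotspots (0.926% of those tested) for H2AZ. For H3K36me3 it called 344 bins (4.45%) and 5 hotspots (4.17%), and the reported fit called 0 for both marks. Replicate numbers pair nothing in the labels. With the number as a replicate block, 574 bins (7.42% of those tested) and 13 hotspots (10.8%) were called for H3K36me3. For H3K27ac these were 2267 bins (17.9%) and 32 hotspots (17.7%), and for H2AZ 0 were called. With that block the adjusted p in limma was 0.00397 for H3K36me3 at chr11:69300001-69400000, 0.0103 at ST3GAL1, 0.0278 at ZC3H7B and 0.0161 at TBCD, and 0.0630 for H3K27ac at GFOD1. The GFOD1 p was also 0.0598 with no filter on low cover and 0.0740 with −log10 q of at least 5. The deviations of same-numbered libraries correlated at 0.415 (H2AZ), 0.0995 (H3K27ac) and 0.619 (H3K36me3). Leaving out 1 library at a time gave 356 to 1251 bins and 0 to 20 hotspots for H3K27ac, and 10 to 206 bins and 1 to 2 hotspots for H3K36me3. A lone library is then assumed to vary like the others.

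The ratio of hotspot cover to that of other bins with a midpoint was 1.75 (H2AZ), 1.83 (H3K27ac) and 1.36 (H3K36me3). It was 1.10, 1.07 and 1.00 against the next 300 bins, 1.91, 2.00 and 1.48 against all other autosomal bins, and 1.51, 1.77 and 1.28 for hotspots with a background under 2. With ChIRP peaks of at least 10-fold alone, 10.3% of the densest 300 bins were adjacent, and 132 of them were among the 300 described. With 150 bins, 20% lay in amplicon windows. The cause of these changes was not tested. The comparisons by background, by the tied count and by fold were chosen after seeing the data. Cover depends on how many peaks each list holds, and 1 ChIRP library gives no spread for the counts.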
